A study of Homo sapiens with 6 samples.

Results

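The SMAD genes and their regulators are 10 of the 62492 features in a table of ribosome footprint counts from WPMY-1, an immortalised human line of prostate stromal myofibroblasts. They were chosen by Ensembl gene ID, 1 row for each of SMAD1 to SMAD7, SKI, SKIL and SMURF2, and all 10 passed the filter on low counts. All libraries come from this 1 cell line with short hairpin RNA expression. The control group (3 libraries) is labelled shcontrol and TRMT61A wildtype. The knockdown group (3 libraries) is labelled sh61A and TRMT61A knockdown. TRMT61A is the catalytic subunit of the enzyme that places 1-methyladenosine in tRNA, and the study asks how its loss alters translation of the TGF-beta pathway. Ribosome profiling counts the mRNA fragments that ribosomes shield from nuclease. A count therefore cannot tell apart more mRNA from more ribosomes on each mRNA. The level of TRMT61A, the stromal identity of the cells and other TGF-beta genes were not analysed here, because the gene table used carries no Ensembl IDs.

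SMAD proteins carry TGF-beta family signals from cell surface receptors to the nucleus. SMAD2 and SMAD3 are phosphorylated by TGF-beta and activin receptors and SMAD1 and SMAD5 by BMP receptors, and both kinds join SMAD4 to bind DNA. SMAD6 and SMAD7 inhibit the receptors' signal, SKI and SKIL (also called SnoN) hold SMAD complexes in a repressive state on DNA, and the ubiquitin ligase SMURF2 marks SMADs, SKIL and receptors for breakdown. In prostate stroma this pathway is known for driving myofibroblast character and matrix production.

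The 3 control libraries held 6771455 to 8008896 counts and the 3 knockdown libraries 12704354 to 17752247. The labels do not say that replicate libraries are separate cultures. The p-values below therefore speak only of the spread among these 6 libraries, part or all of which may be technical. Pearson's r of log2 CPM (counts scaled to a common library size, here by TMM) across the 11653 tested features, which are not independent, was 0.840 to 0.879 between control libraries, 0.808 to 0.833 between knockdown libraries and 0.768 to 0.828 between the groups.

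Of the 10 genes, SKI alone passed the test between groups, and it was higher with the TRMT61A hairpin (adjusted p under 0.05 in edgeR's quasi-likelihood F-test over 11653 features). Over all features 3.12% were called, 1.48% higher and 1.64% lower in the knockdown. None of the 10 fell by this test, although 8 had a fold change below 0 on the log2 scale, and the unadjusted p was under 0.05 for 4 of the 10 (SKI, SMAD2, SMAD3 and SMAD4) against 16.3% of all features. In 5 of the 10 the 3 libraries of a group lay wholly on 1 side of the other 3, which happened in 24.8% of all features. Those 5 were SKI on the higher side and SMAD2, SMAD3, SMAD4 and SMAD6 on the lower side, and 12.7% of all features were separated with the knockdown lower. The median log2 fold change of the 10 was -0.78, and that of all tested features was -0.0047. These are counts over 10 genes, most of them without a call, and no test was made of the list.

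**Figure D1:**
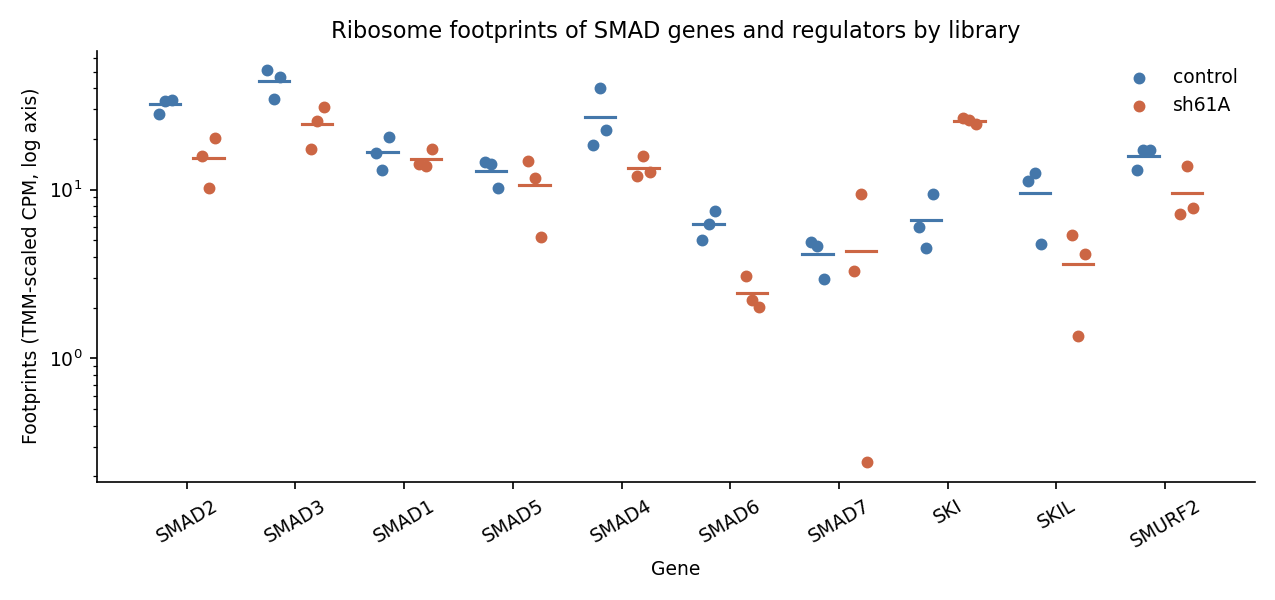
Footprints of each gene in each library (TMM-scaled CPM on a log axis), with 3 control points in blue, 3 sh61A points in orange and a line at each group's mean. SKI lies at 24.4 to 26.6 CPM in the knockdown and 4.54 to 9.41 in control, while the 3 sh61A points of SMAD7 spread from 0.243 to 9.41.

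SKI (ENSG00000157933.10_4) is a nuclear co-repressor that binds SMAD2, SMAD3 and SMAD4 and blocks their activation of target genes. Its row held 44, 37 and 83 counts in control libraries 1 to 3 and 404, 305 and 301 in knockdown libraries 1 to 3. After TMM scaling, which corrects for depth and for a few features taking much of a library, this was 5.97, 4.54 and 9.41 CPM in control and 26.6, 25.9 and 24.4 CPM in the knockdown. All 3 knockdown libraries were above all 3 control libraries, and the lowest of them was well clear of the highest control. The group means were 6.64 ± 2.51 and 25.6 ± 1.1 CPM (SD, n = 3 each), a 3.84-fold rise with a 95% interval of 2.21 to 6.68. On the log2 scale the change came to 1.94 ± 0.37 (SE), and edgeR gave it an adjusted p of 0.0158. The spread within the knockdown was small, at a coefficient of variation of 4.33%, where counting error alone would give 5.45%. In control it was 37.8%, above the 13.5% that counting error would give.

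The call for SKI was lost in 4 of 6 fits made with 5 libraries, while its size moved little. Its adjusted p in edgeR was 0.067 without control library 1, 0.0934 without control library 2, 0.0533 without knockdown library 1 and 0.0757 without knockdown library 2, and it was 0.0413 without control library 3 and 0.0473 without knockdown library 3. Over these 6 fits the log2 fold change ran from 1.73 to 2.28. A fit without a library has fewer samples, and the number of features called over the whole table dropped in each of them too. Why the call for SKI was lost was not tested.

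SKIL (ENSG00000136603.14_6) is the close relative of SKI, a co-repressor whose gene is itself known to be induced by TGF-beta as a negative feedback. Its footprints stood at 11.3, 12.5 and 4.76 CPM in control and 5.39, 1.36 and 4.13 CPM in the knockdown. The groups overlapped, because knockdown library 1 exceeded control library 3. A log2 fold change of -1.38 ± 0.65 (SE) did not pass the test (adjusted p = 0.318, edgeR). Its 95% interval, -2.79 to 0.03 on the log2 scale, includes 0. The fold changes of SKI and SKIL had opposite signs, but only that of SKI passed.

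Ratios of counts between genes of 1 library do not depend on how libraries are scaled. Those with SKI use the same SKI counts as the test above, so they restate its rise and are no separate evidence for it. SKI over SKIL was 0.530, 0.363 and 1.98 in control and 4.93, 19.1 and 5.90 in the knockdown. The highest control ratio was below the lowest knockdown ratio, and the value of 19.1 rests on only 16 SKIL counts in knockdown library 2. SKI made up 3.54%, 2.52% and 5.35% of the 10 genes' counts in control and 22.2%, 19.9% and 19.5% in the knockdown. A ratio shows unequal change and cannot say which gene of it moved. In all 15 such ratios and shares were computed, some of them from the same counts. Their groups did not overlap in 5 and overlapped in 10. Those 5 were SKI over SKIL, the share of SKI, SKI over the sum of the other genes, SMAD1's share of SMAD1, SMAD2, SMAD3 and SMAD5, and the ratio between the branches. SKI over the sum of the other genes is the share of SKI in another form. How often ratios between other genes separate was not computed. No ratio was tested. Only the shares of SMAD1, SMAD2, SMAD3 and SMAD5, and SMAD6 plus SMAD7 over their summed counts, had been planned. SKI over SKIL, the share of SKI in both its forms and the ratio between the branches were chosen after the values had been seen.

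SMAD2 (ENSG00000175387.16_10) and SMAD3 (ENSG00000166949.16_5) are the receptor-regulated SMADs of the TGF-beta and activin branch. SMAD3 binds DNA directly, whereas the main form of SMAD2 does so through partners. SMAD2 had 28.2, 33.6 and 34.1 CPM in control and 15.8, 10.3 and 20.3 CPM in the knockdown, and the groups did not overlap. The means were 32.0 ± 3.3 and 15.4 ± 5.0 CPM (SD, n = 3 each). This difference of -1.05 ± 0.32 (SE) on the log2 scale missed the threshold (adjusted p = 0.102, edgeR). Its 95% interval ran from -1.74 to -0.36. It was called in DESeq2 alone, with an adjusted p of 0.0461, and the adjusted p over its 16 alternatives ran from 0.0461 to 0.296.

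SMAD3 footprints were 50.9, 34.2 and 46.7 CPM in control and 17.4, 25.4 and 31.0 CPM in the knockdown. Again the groups did not overlap, but knockdown library 3 came within a few CPM of control library 2. Its change of -0.84 ± 0.29 (SE) in log2 units had a 95% interval of -1.47 to -0.20 and missed the threshold as well (adjusted p = 0.156, edgeR). SMAD3 was called in 0 of its 16 alternatives.

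SMAD1 (ENSG00000170365.10_5) and SMAD5 (ENSG00000113658.18_6), the receptor-regulated SMADs of the BMP branch, differed less between the groups. SMAD1 had 16.4, 13.1 and 20.5 CPM in control and 14.1, 13.8 and 17.5 CPM in the knockdown. Every knockdown value lay inside the range of the control values. On the log2 scale they differed by -0.14 ± 0.33 (SE, adjusted p = 0.906, edgeR). The 95% interval of that difference was -0.86 to 0.58, so a change of either sign within it cannot be told from none. SMAD5 had 14.5, 14.1 and 10.2 CPM in control and 14.9, 11.8 and 5.27 CPM in the knockdown. Only knockdown library 3 was below the control range. The change was -0.28 ± 0.44 (SE) in log2 units, its 95% interval -1.24 to 0.68 (adjusted p = 0.849, edgeR).

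**Figure D2:**
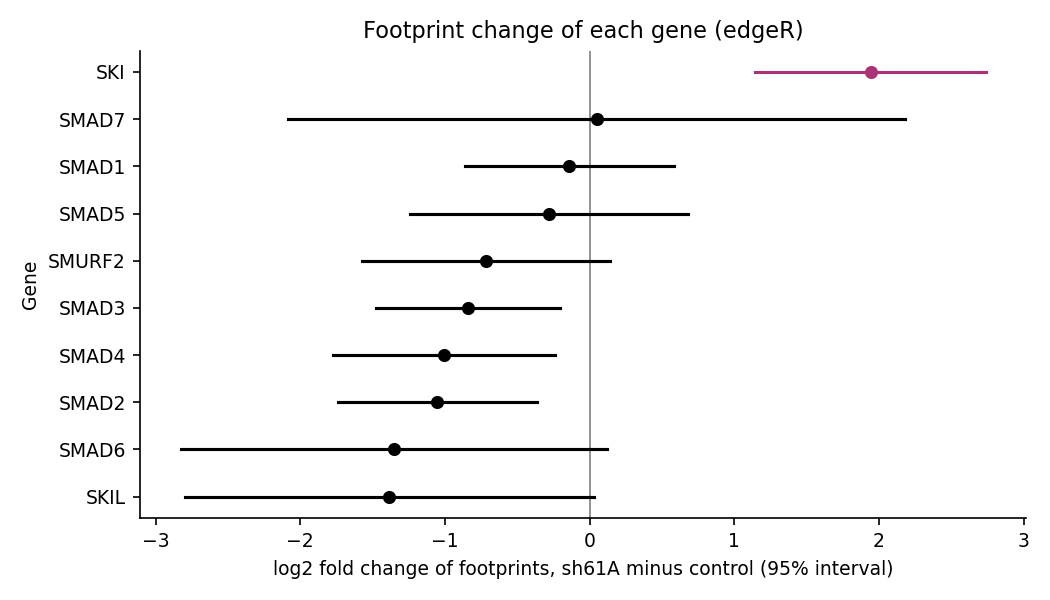
Change in footprints of each gene on the log2 scale (sh61A minus control, edgeR, 3 libraries in each group), as points with 95% intervals. SKI, drawn in purple, is the gene with an adjusted p under 0.05, and the intervals of SMAD2, SMAD3 and SMAD4 also lie on 1 side of 0 but did not pass after adjustment.

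The balance between the branches was read within each library, where scaling plays no part. The summed counts of SMAD2 and SMAD3 over those of SMAD1 and SMAD5 were 2.56, 2.49 and 2.63 in control and 1.15, 1.39 and 2.25 in the knockdown. Control libraries were close together and all above the knockdown libraries, of which library 3 was nearest to them. This ratio was chosen after the values had been seen and was not tested, and none of its 4 genes passed the test. Because the genes differ in length, the ratio is not a ratio of levels per mRNA length, and only its change between libraries can be read. SMAD1 made up 14.9%, 13.8% and 18.4% of the counts of SMAD1, SMAD2, SMAD3 and SMAD5 in control and 22.7%, 22.5% and 23.7% in the knockdown, without overlap. The shares of SMAD2, SMAD3 and SMAD5 overlapped between groups. The 4 coding sequences are related, and how reads that fit more than 1 gene were counted is not given in the sources used here, so a part of these counts may be shared between paralogs.

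**Figure D3:**
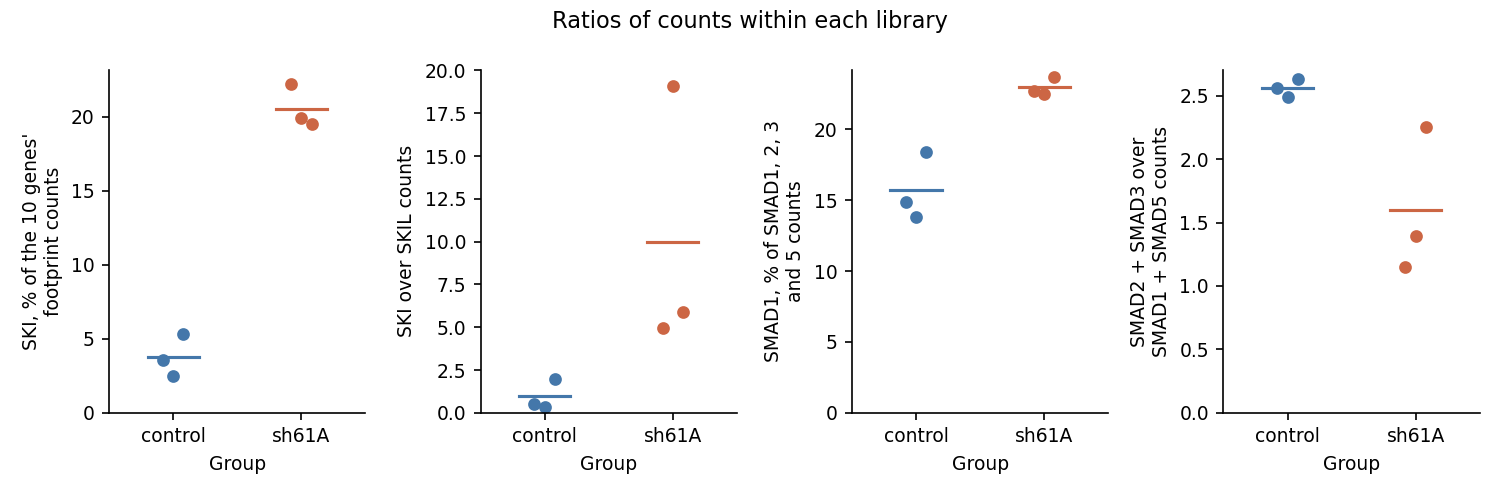
Count ratios within each library, with 3 points and a mean line for each group and axes that start at 0. From left to right, SKI as a percentage of the 10 genes' counts, SKI over SKIL, SMAD1 as a percentage of SMAD1, SMAD2, SMAD3 and SMAD5, and SMAD2 plus SMAD3 over SMAD1 plus SMAD5, which are 4 of the 5 ratios whose groups do not overlap among the 15 computed.

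SMAD4 (ENSG00000141646.14_7) is the common partner that both branches need to form a DNA-binding complex. It had 18.4, 39.8 and 22.7 CPM in control and 12.0, 15.8 and 12.6 CPM in the knockdown. All knockdown values were below all control values, with control library 2 standing high in its group. SMAD4's change was -1.01 ± 0.35 (SE) in log2 units, its 95% interval -1.77 to -0.24, and it did not pass (adjusted p = 0.158, edgeR). Without control library 2 it was -0.62, with an adjusted p of 0.559 in edgeR, so the size rests in good part on that library. Over its 16 alternatives the adjusted p ran from 0.0947 to 0.559. Relative to the counts of SMAD1, SMAD2, SMAD3 and SMAD5 in the same library, SMAD4 came to 0.168, 0.419 and 0.203 in control and 0.192, 0.257 and 0.171 in the knockdown, so its groups overlapped on this measure.

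The inhibitory SMADs had few footprints. Their summed counts over those of SMAD1, SMAD2, SMAD3 and SMAD5 were 0.0900, 0.115 and 0.0935 in control and 0.103, 0.189 and 0.0307 in the knockdown, so the groups overlapped. SMAD6 (ENSG00000137834.15_7), which acts mostly against BMP signals, had 37, 51 and 66 counts in control and 47, 26 and 25 in the knockdown. With the deeper knockdown libraries taken into account this was 5.02, 6.25 and 7.49 CPM against 3.09, 2.20 and 2.03 CPM, without overlap. The change of -1.35 ± 0.68 (SE) in log2 units, 95% interval -2.83 to 0.12, did not pass (adjusted p = 0.358, edgeR).

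SMAD7 (ENSG00000101665.9_5), which blocks TGF-beta receptors and brings SMURF2 to them, had 36, 38 and 26 counts in control and 50, 111 and 3 in the knockdown. In CPM this was 4.88, 4.66 and 2.95 against 3.29, 9.41 and 0.243. Knockdown libraries thus held both the highest and the lowest value of the 6, and the highest was 38.7 times the lowest. The exact Poisson 95% interval, which covers counting error only, was 91.3 to 134 for the 111 counts of knockdown library 2 and 0.619 to 8.77 for the 3 counts of library 3. A log2 fold change of 0.05 ± 0.98 (SE), 95% interval -2.08 to 2.18, gives no direction (adjusted p = 0.992, edgeR). It turned negative with library size alone (-0.26) and ran from -1.22 to 0.61 with a library left out.

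SMURF2 (ENSG00000108854.16_8) had 13.0, 17.0 and 17.1 CPM in control and 7.17, 13.8 and 7.78 CPM in the knockdown. Knockdown library 2 lay above control library 1, and the other knockdown libraries were below all controls. The difference of -0.72 ± 0.39 (SE) in log2 units, 95% interval -1.57 to 0.14, did not pass (adjusted p = 0.414, edgeR).

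**Figure D4:**
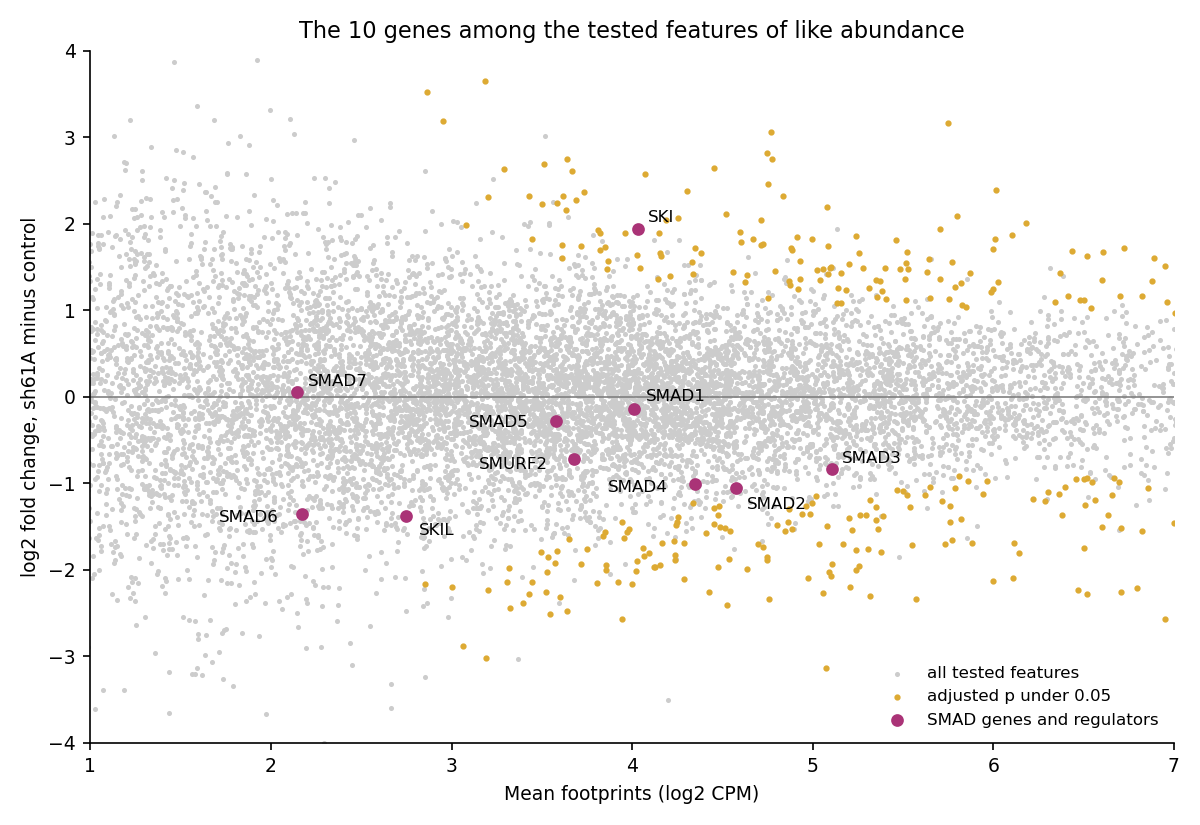
Mean footprints (log2 CPM) against the log2 fold change (sh61A minus control) for the 9910 of 11653 tested features inside the axes, with features at an adjusted p under 0.05 in yellow and the 10 genes in purple. SKI lies among the called features, and the other 9 genes lie among the uncalled ones, most of them below 0.

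By footprint abundance averaged over all 6 libraries, 7 of the 10 genes stood above the median of the tested features. The other 3 (SKIL, SMAD6 and SMAD7) stood below it, and the 10 ran from the 26.7th percentile (SMAD7) to the 81.8th (SMAD3). SKI's place, the 64th percentile, includes its higher knockdown values. In control its mean was 6.64 CPM, below the 9.51 CPM of SKIL and near the 6.25 CPM of SMAD6. Within the 10 genes' range of abundance 6422 features were tested and 2.68% were called. Together the 10 genes took 169, 180 and 176 CPM in control and 120, 130 and 125 CPM in the knockdown. Without SKI, the other 9 took 163, 175 and 167 CPM in control and 93.1, 104 and 101 CPM in the knockdown. Both sums were lower in all knockdown libraries than in all control libraries. Among single features 12.7% were separated in this way, but how often sums over genes are was not computed. Leaving SKI out was decided after its value had been seen. Neither sum was tested, and none of the other 9 genes passed the test. Genes with many footprints, such as SMAD3, weigh most in a sum. With library size alone the median of all features moved from -0.0047 to -0.30 on the log2 scale. On that scale SKI rose by 1.64, with an adjusted p of 0.0484 in edgeR, and the other 9 genes were all negative.

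**Figure D5:**
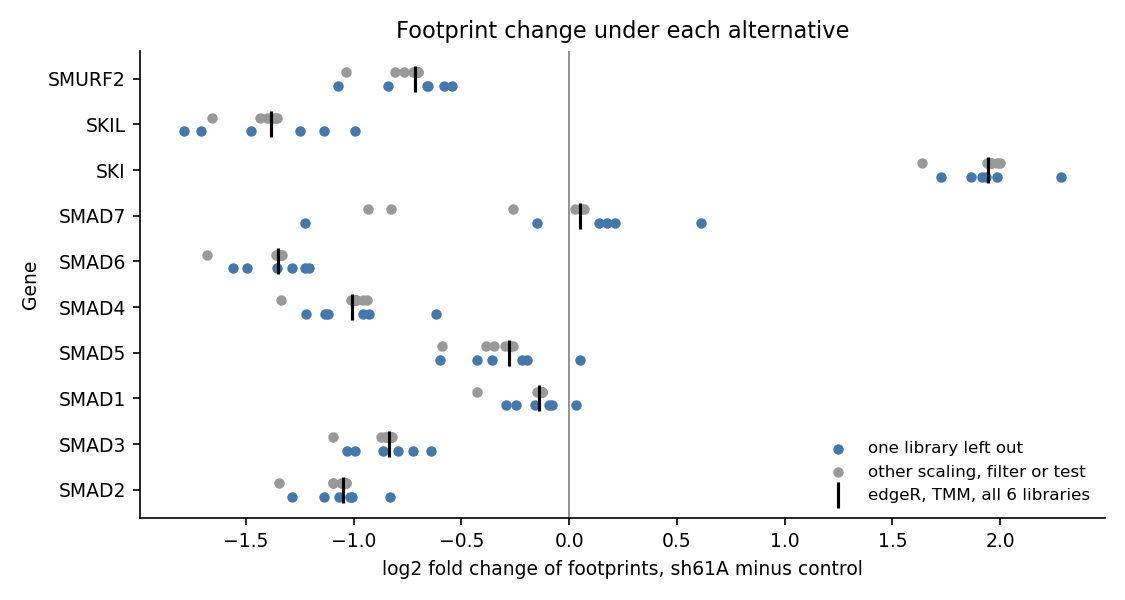
Change in footprints of each gene on the log2 scale under each alternative, with fits that leave a library out in blue, other scalings, filters or tests in grey and the edgeR value over 6 libraries as a black bar. SKI stays between 1.64 and 2.28, whereas SMAD7 spans -1.22 to 0.61 and SMAD1 and SMAD5 reach both sides of 0.

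The promoters were searched for GTCTAGAC, the palindrome that SMAD3 and SMAD4 are known to bind, which reads the same on both strands. RefSeq (GRCh38.p14) gave 20 promoter windows for 9 of the 10 genes, SKI not among them, and the 250 bases before each start site were searched. The palindrome was in 1 of the 20 windows, that of SMAD6, and in 0.182% of all 35116 windows of this length. Its first base lies 12 bases before the start site, and it is shown in capitals within chr15:66702198-66702235 on the plus strand.
SMAD6: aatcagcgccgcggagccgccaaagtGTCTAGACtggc
The shorter CAGAC, searched on both strands and not contained in the palindrome, was found in 6 of the 20 windows and in 38% of all windows. These matches describe the sequence, and footprint counts do not measure binding there. Bases outside these windows were not searched, so a gene without a match here may still carry the palindrome elsewhere. Some windows of the same gene overlap. By position, SMAD3 and SMAD6 lie on chromosome 15 and SMAD2, SMAD4 and SMAD7 on chromosome 18.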

How the data were processed

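The deposited table holds counts per Ensembl gene ID for the 6 libraries. They were taken as raw read counts, because the values of the 10 genes are whole numbers and the library totals differ. The submitters' processing notes name hg38, fastp and Bowtie 1.3.1. Sources used here do not give the counting tool, the annotation or the use of strand, so overlapping, antisense and near-identical genes are uncertain. Control columns carry a vector's name and were matched to the shcontrol samples by assay and replicate number. The table's 6 other columns, named for RNA, match no sample described here and were not used, so no translation efficiency was computed. No ID of the table matched the RefSeq gene table (59792 rows, 0 with an Ensembl ID). The 10 genes' names come from the list that defines them, and the planned lists of pathway genes and cell type markers, TRMT61A and levels per coding length were not analysed here.

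Features kept by filterByExpr (11653) were scaled by TMM and tested with edgeR 4.0.16 in R 4.3.3 (glmQLFit and glmQLFTest, two-sided, no block, 6 libraries), with Benjamini-Hochberg adjustment over all of them. Standard errors are the log2 fold change over the root of its F statistic. Alternatives used DESeq2 1.42.0, limma 3.58.1, other scalings and filters, a replicate block and each library left out. Members, lists and ratios were chosen with earlier results of these data known. All 10 members were named by rule. A count of 0 would allow up to 3 counts, or at most 0.407 CPM. Intervals on counts cover counting error only, and PCR copies may be counted more than once.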

Additional observations from a re-analysis of the deposited data

How the results depend on the processing

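The number of the 10 genes called was 1 (SKI) in 9 of the 10 alternatives that kept all libraries and 2 in DESeq2, where SMAD2 joined it and the adjusted p of SMAD6 and SMAD7 was undefined. It was 0 to 1 with a library left out. With at least 10 CPM in 3 libraries only 7 of the 10 were tested, because SMAD6, SMAD7 and SKIL dropped out. SKI kept its direction in all 16 alternatives. SMAD2, SMAD3, SMAD4, SMAD6, SKIL and SMURF2 kept a negative fold change in every alternative that tested them, 14 to 16 each. SMAD7 changed sign with library size alone (-0.26), limma voom (-0.93) and the replicate block (-0.83), and without control library 3 (-0.15) or knockdown library 2 (-1.22). SMAD1 changed sign without control library 3 (0.034) and SMAD5 without knockdown library 3 (0.050). With a library left out, SMAD1 ran from -0.29 to 0.034, SMAD5 from -0.60 to 0.050 and SMAD7 from -1.22 to 0.61, all in log2 units. Over all features the 364 calls among 11653 became 735 among 20515 without a filter on low counts. They became 602 among 6111 with at least 10 CPM in 3 libraries, a larger share. DESeq2 gave 834 among 20515, some of which had an undefined adjusted p. The replicate block gave 208 among 11653, and fits with a library left out gave 47 to 171. The causes were not tested. With library size alone 63 features were higher and 334 lower, against 173 and 191 with TMM. Deviations of same-numbered libraries correlated at -0.0065, -0.015 and 0.039, so the numbers do not show pairing. The replicate block left SKI called, at 2.00 and an adjusted p of 0.0378 in edgeR, and changed no other call among the 10. Alternatives for levels per coding length were not run. In the members' range of abundance the median standard error was 0.45 in log2 units, which limits how small a change could be seen.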
